A study of Mus musculus with 6 samples.

Results

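The PP2C family, also called PPM phosphatases, was followed through gene expression arrays of mouse embryonic heart. Its 10 genes, Ppm1a, Ppm1b, Ppm1d, Ppm1e, Ppm1f, Ppm1g, Ppm1h, Ppm1k, Ppm1l and Ppm1m, were taken from 18193 genes that a probe set of the array names alone. They were covered by 25 probe sets, and 21 of these had a mean signal above the lowest 40% of all probe sets on the array. The family was chosen by its measured differences between the labelled groups, so the differences given for its members are descriptions and carry no p-value. PP2C enzymes remove phosphate from serine and threonine, need manganese or magnesium ions, and work as single chains without the regulatory subunits that steer the PPP phosphatases. They are known as brakes on kinase pathways, among them stress MAP kinases, SMAD and AMPK signalling, and Ppm1k acts in mitochondria on the breakdown of branched-chain amino acids, a fuel of the heart.

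The study compared hearts dissected at E12.5 from C57BL/6 mouse embryos. By their labels, Rhau had been deleted in 3 samples and 3 were wildtype controls, each sample hybridised to 1 array. Rhau is an older name of Dhx36, a helicase that unwinds G-quadruplexes, stacked structures of guanine-rich RNA and DNA. The labels name neither the part of the gene that was deleted nor the cells or the Cre driver in which that happened. They do not say whether replicates came from separate litters, so p-values measure the spread between these arrays.

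The arrays held 2 patterns that bear on the labelled comparison. The Dhx36 transcript had more signal under the Rhau KO label on all 3 of its probe sets, by 1.41, 1.10 and 0.90 on the log2 scale, against the direction a deletion would give. Exchanged labels cannot be told apart here from probes that lie outside the deleted part and read a raised remaining transcript. Such probes check nothing, and exchanged labels would turn the sign of every difference given. Groups are therefore named by the label they carry. Sex-linked signal also differed: both Xist and Y-linked signal were present in 3 arrays, Rhau KO-labelled replicates 1 and 2 and wildtype-labelled replicate 3, while replicates 1 and 2 labelled wildtype held almost only Xist, and replicate 3 labelled Rhau KO almost only Y-linked signal. Y-linked signal was 1.23% to 39.3% of its highest array under the wildtype label and 59.6% to 100% under the Rhau KO label. The labels do not give the number of hearts per array, and an array with both signals may hold RNA of more than 1 embryo, which was not tested. All 10 members lie on autosomes. Differences were therefore also computed with a covariate for Y-linked signal, and within the 3 arrays that held both signals. Within those 3 arrays Y-linked signal was still lower under the wildtype label, at 39.3% against 59.6% and 82.8%. Neither computation can therefore fully separate sex-linked signal from the label. Cardiomyocyte markers were bright on every array, Tnnt2 at 15.14 and 15.01 (log2 signal, means of the arrays labelled wildtype and labelled Rhau KO). The median log2 signal of an array was 6.68 to 6.74 under the wildtype label and 6.75 to 6.80 under the Rhau KO label, without overlap. Arrays have no read depth, and their number limits the precision.

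Promoter sequences are shown for 4 members because guanine-rich DNA and RNA is what the helicase binds. The searched motif was GGG 4 times, with gaps of 1 to 7 bases that may themselves be G, on either strand. It was present in 18.6% of 32851 promoter windows of RefSeq on GRCm38.p6, each reaching from 250 bases before a start site to 50 bases from it onward. Windows were held for 9 of the 10 members; Ppm1l was not among them. The motif was found in 5 of their 12 windows, in 4 genes: Ppm1a, Ppm1b, Ppm1d and Ppm1m. GC content of the members' windows ran from 45.0% to 78.0%, against a median of 52.7% over all windows, and richer windows hold the motif more easily. Below, capitals mark the motif, and each sequence reads 5′ to 3′ on the strand of the gene. Ppm1a (chr12:72760961-72761260, plus strand) and Ppm1m (chr9:106199184-106199483, minus strand) had lower signal in the arrays labelled Rhau KO. Ppm1d (chr11:85311004-85311303, plus strand) holds the motif and did not pass the threshold. Ppm1e (chr11:87358945-87359244, minus strand) holds none and had higher values without passing it.
Ppm1a: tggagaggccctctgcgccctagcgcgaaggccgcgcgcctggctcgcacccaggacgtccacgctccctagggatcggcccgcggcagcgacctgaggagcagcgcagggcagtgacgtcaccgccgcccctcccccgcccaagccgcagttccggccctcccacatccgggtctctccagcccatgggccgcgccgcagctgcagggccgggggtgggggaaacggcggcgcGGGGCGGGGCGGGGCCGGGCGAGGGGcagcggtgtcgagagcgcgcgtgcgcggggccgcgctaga
Ppm1m: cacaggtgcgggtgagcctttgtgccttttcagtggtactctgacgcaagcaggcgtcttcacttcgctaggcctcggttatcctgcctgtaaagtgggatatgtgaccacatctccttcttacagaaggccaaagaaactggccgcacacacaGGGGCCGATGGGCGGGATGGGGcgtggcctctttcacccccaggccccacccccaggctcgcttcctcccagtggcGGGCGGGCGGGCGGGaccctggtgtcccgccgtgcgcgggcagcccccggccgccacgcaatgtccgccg
Ppm1d: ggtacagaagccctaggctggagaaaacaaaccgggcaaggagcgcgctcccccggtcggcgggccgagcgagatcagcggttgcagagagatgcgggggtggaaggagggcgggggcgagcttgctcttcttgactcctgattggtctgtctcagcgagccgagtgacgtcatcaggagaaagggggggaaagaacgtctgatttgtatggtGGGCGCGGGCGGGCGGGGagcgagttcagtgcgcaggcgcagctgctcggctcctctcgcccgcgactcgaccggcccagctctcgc
Ppm1e: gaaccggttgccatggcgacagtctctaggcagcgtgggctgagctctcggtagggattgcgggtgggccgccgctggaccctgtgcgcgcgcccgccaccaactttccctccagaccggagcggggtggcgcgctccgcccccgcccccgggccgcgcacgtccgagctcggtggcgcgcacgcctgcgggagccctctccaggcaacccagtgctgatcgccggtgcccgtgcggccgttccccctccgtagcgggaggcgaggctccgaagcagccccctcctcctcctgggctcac
The Ppm1a stretch of 26 bases spans the start site itself, and the Ppm1m window holds 2 stretches. A match says only that these letters are present.

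Across the family, Ppm1a, Ppm1m and a probe set of Ppm1b had lower signal under the Rhau KO label, and Ppm1l had higher signal. Of the 21 probe sets above the filter, 5 were called lower and 2 higher at an adjusted p under 0.05 in a limma fit over 27022 probe sets. Over all tested probe sets 6.88% were called lower and 6.75% higher. With each array centred on its median, the split of all calls moved from 1824 higher and 1858 lower to 1007 and 2528, while that of the members became 2 higher and 6 lower. Since the family was chosen on this contrast, nothing is read from the members' share. Groups did not overlap for 6 member probe sets that were lower and 5 that were higher, where 14.5% and 19.4% of all tested probe sets did so. The median difference of the members was -0.06 against 0.04 over all tested probe sets, and differences ran from -1.04 to 0.71. The median within-label SD of the members was 0.119, against 0.145 over all tested probe sets, and that of Ppm1e was 0.300. Signal level was not matched and the choice used these same values, so nothing is read from the spread.

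**Figure D1:**
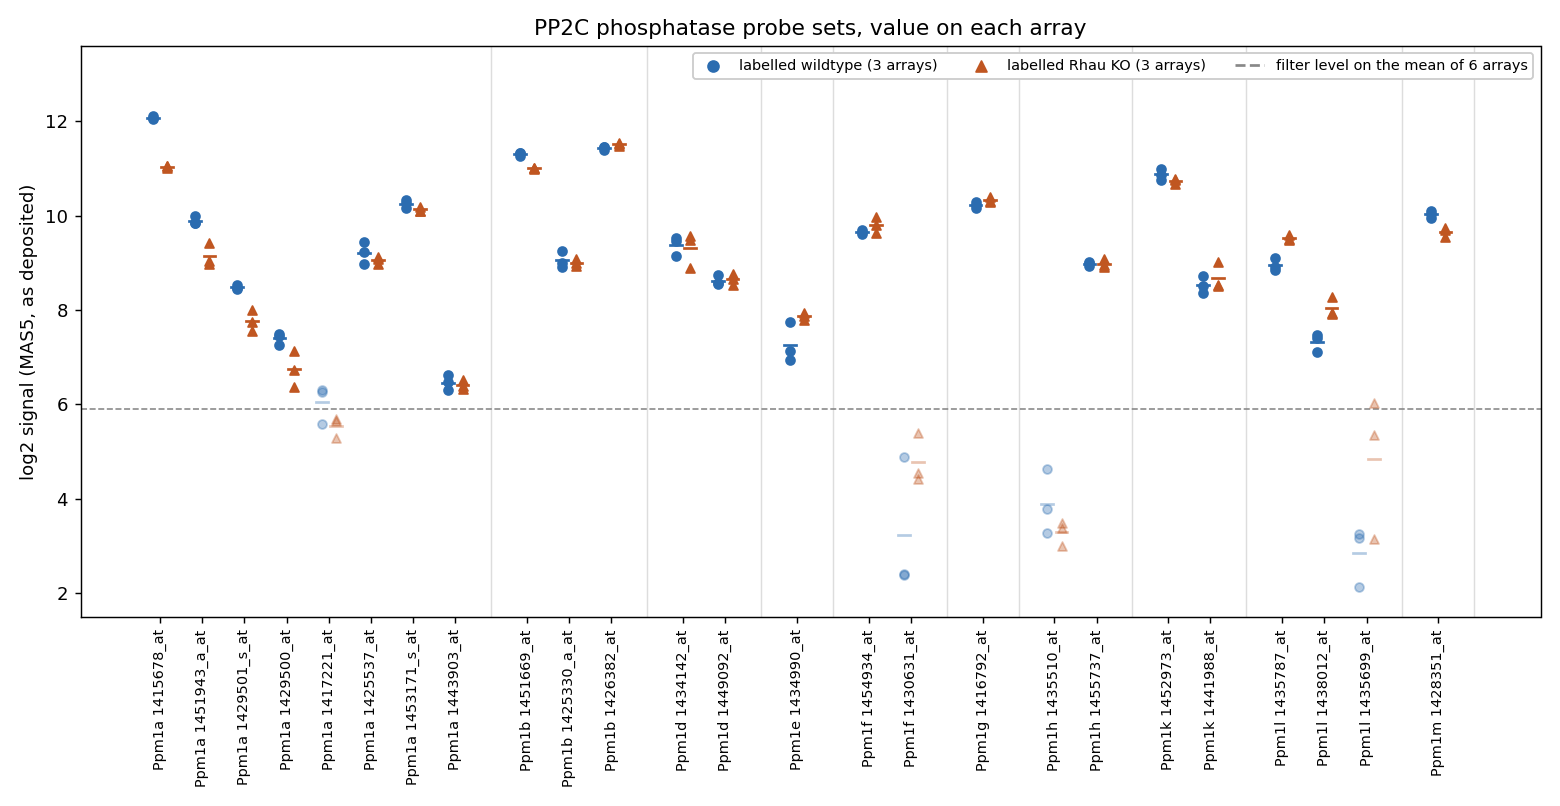
Log2 signal of all 25 PP2C probe sets (vertical axis) on each array, by gene and probe set along the horizontal axis. Circles are the 3 arrays labelled wildtype, triangles the 3 labelled Rhau KO, short lines their means, pale symbols the 4 probe sets below the filter, and the dashed line the filter level of 5.90; the Ppm1a probe set at far left stands near 12.1 and near 11.0 in the respective groups.

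Ppm1a encodes PP2C alpha, which dephosphorylates p38 and SMAD proteins and AMPK. Its brightest probe set, 1415678_at, read 12.12, 12.06 and 12.06 in replicates 1 to 3 labelled wildtype and 11.01, 11.05 and 11.06 in those labelled Rhau KO (log2 signal). The groups lay far apart, with little spread within either. The difference was -1.04 (SE 0.051), a 2.06-fold lower signal, the most extreme of the 21 member probe sets above the filter. It was -1.06 with the Y-linked covariate and -1.03 within the 3 arrays that held both Xist and Y-linked signal, and it was the only member called lower in either.

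The other Ppm1a probe sets did not all follow it. Probe set 1451943_a_at, whose suffix marks several transcripts of 1 gene, read 9.99, 9.86 and 9.84 (labelled wildtype) against 9.42, 8.98 and 9.04 (labelled Rhau KO), a difference of -0.75 (SE 0.113). Probe set 1429501_s_at read 8.46, 8.53 and 8.45 against 8.01, 7.75 and 7.56, a difference of -0.71 (SE 0.133). Both were called lower, and in both the arrays labelled Rhau KO all lay below the arrays labelled wildtype. With the covariate they stood at -0.36 (SE 0.217) and -0.33 (SE 0.272), and within the 3 arrays at -0.64 and -0.58, in each case without a call.

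A further Ppm1a probe set, 1429500_at, read 7.44, 7.49 and 7.26 (labelled wildtype) against 6.73, 7.14 and 6.37 (labelled Rhau KO). Its groups did not overlap, and its difference of -0.65 (SE 0.210) was not called. It stood at -0.22 with the covariate and at -0.32 within the 3 arrays. It was called at -0.84 without replicate 2 labelled Rhau KO, the array nearest to the wildtype label. Probe sets 1425537_at, 1453171_s_at and 1443903_at had overlapping groups and differences of -0.16, -0.11 and -0.05. The dim probe set 1417221_at lay below the filter, between 5.58 and 6.30 under the wildtype label and between 5.28 and 5.69 under the Rhau KO label. All 8 differences were thus below 0, from -1.04 to -0.05. The sign of 1425537_at turned to 0.06 with the covariate and to 0.05 within the 3 arrays, where 1417221_at stood at 0.09.

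The Ppm1a probe sets thus differed among themselves, also where the platform annotation gives them 1 source sequence: 1429501_s_at and 1453171_s_at share one and differed by -0.71 and -0.11 between the labelled groups. Signals of different probe sets depend on their probes, so their levels were not set against each other. Which Ppm1a transcripts each one detects was not examined.

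Ppm1m, PP2C eta, a family member known from interleukin-1 signalling, was measured by 1 probe set. It read 9.96, 10.11 and 10.04 in the arrays labelled wildtype and 9.54, 9.69 and 9.74 in those labelled Rhau KO. The gap between the groups exceeded the range within either. The difference was -0.38 (SE 0.078), a 1.30-fold lower signal that was called. It stood at -0.54 (SE 0.170) with the covariate and -0.42 within the 3 arrays, without a call in either.

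Ppm1b encodes PP2C beta, which acts on the kinases TAK1 and IKK-beta and is the closest relative of Ppm1a. Probe set 1451669_at read 11.33, 11.26 and 11.33 (labelled wildtype) against 11.01, 11.01 and 10.99 (labelled Rhau KO). The 6 values formed 2 tight, separate groups, with a difference of -0.30 (SE 0.053) that was called. It was -0.32 both with the covariate and within the 3 arrays, without a call. Probe set 1425330_a_at, annotated to the same source sequence, had overlapping groups and a difference of -0.06. Probe set 1426382_at, annotated to another one, pointed the other way at 0.08 (SE 0.052), its groups just apart and without a call. The 3 Ppm1b probe sets thus gave no common direction.

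Ppm1l, an enzyme of the endoplasmic reticulum membrane that acts on the ceramide transfer protein and on TAK1, had higher signal under the Rhau KO label. Probe set 1435787_at read 9.10, 8.85 and 8.91 (labelled wildtype) against 9.58, 9.50 and 9.51 (labelled Rhau KO), a difference of 0.58 (SE 0.090) and a 1.49-fold higher signal. Probe set 1438012_at read 7.12, 7.48 and 7.41 against 8.27, 7.95 and 7.93, a difference of 0.71 (SE 0.156) and a 1.64-fold higher signal. Both were called, and in both every array labelled Rhau KO lay above every array labelled wildtype. The call of 1438012_at was lost without replicate 1 labelled Rhau KO, at 0.60. With the covariate the differences were 0.70 (SE 0.201) and 0.88 (SE 0.354), without a call. Within the 3 arrays they were 0.63 and 0.70, and the first was called. Another probe set, 1435699_at, lay below the filter at 2.13, 3.16 and 3.26 against 3.15, 6.04 and 5.35, with overlapping groups.

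**Figure D2:**
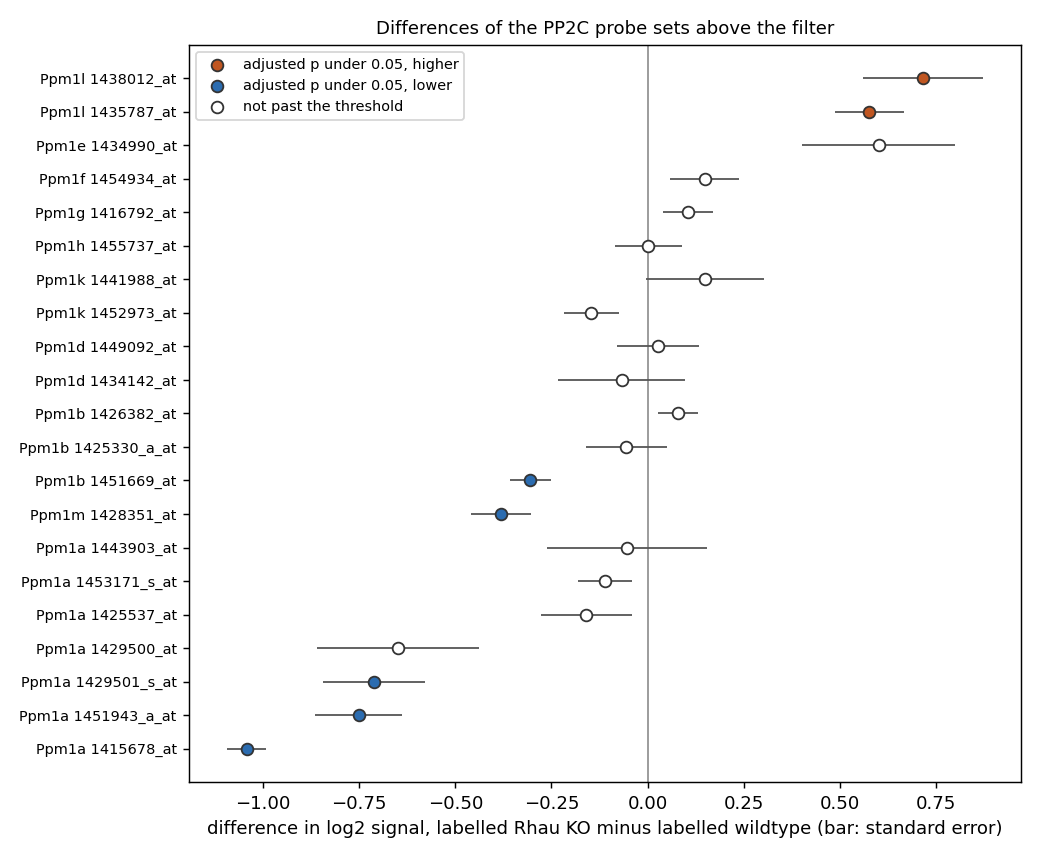
Difference in log2 signal (horizontal axis, labelled Rhau KO minus labelled wildtype) for the 21 PP2C probe sets above the filter, with bars of 1 standard error; filled points passed the adjusted p threshold. Differences span -1.04 for Ppm1a to 0.71 for Ppm1l, and the Ppm1a probe sets spread from -1.04 to -0.05.

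The phosphatases that act on CaM kinases and PAK, Ppm1e and Ppm1f, were not called. Ppm1e, most abundant in brain, read 7.13, 7.74 and 6.94 (labelled wildtype) against 7.88, 7.79 and 7.93 (labelled Rhau KO). Replicate 2 labelled wildtype came close to the lowest array labelled Rhau KO, and the groups did not overlap. The difference was 0.60 (SE 0.198). Without replicate 2 labelled wildtype it was 0.84 and called, and with the covariate it was 1.03 (SE 0.428). Ppm1f probe set 1454934_at read 9.70, 9.60 and 9.66 against 9.64, 9.81 and 9.96, with overlapping groups and a difference of 0.15, which turned to -0.10 with the covariate. Its second probe set lay below the filter, with values between 2.39 and 4.88 under the wildtype label and between 4.41 and 5.40 under the Rhau KO label.

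For the remaining members no probe set was called. Ppm1d, known as Wip1, is itself induced by p53 and switches off p53 and the DNA damage kinases. Its probe sets differed by -0.07 and 0.03 with overlapping groups and by 0.20 and -0.24 with the covariate, and 1434142_at ranged from 8.90 to 9.56 over the 3 arrays labelled Rhau KO alone. Ppm1g, a nuclear family member tied to RNA splicing, read 10.17, 10.29 and 10.22 against 10.30, 10.40 and 10.30. Its groups barely failed to overlap, at a difference of 0.10 (SE 0.065).

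Ppm1k, the phosphatase that activates the branched-chain ketoacid dehydrogenase of mitochondria, had probe sets of opposite sign. Probe set 1452973_at read 10.76, 10.87 and 11.00 against 10.77, 10.66 and 10.75, a difference of -0.15 (SE 0.072), and 1441988_at differed by 0.15 (SE 0.152). Groups overlapped in both, and the first stood at -0.30 (SE 0.155) with the covariate. Ppm1h, which acts on Rab proteins phosphorylated by LRRK2, read 8.99, 8.95 and 9.02 against 8.95, 8.92 and 9.09. Its difference was 0.0022 (SE 0.087), the nearest to 0 in the family, and stood at -0.14 with the covariate. Its other probe set lay below the filter, between 3.28 and 4.63 against 2.99 and 3.49. Values without a call do not show that these transcripts were equal.

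**Figure D3:**
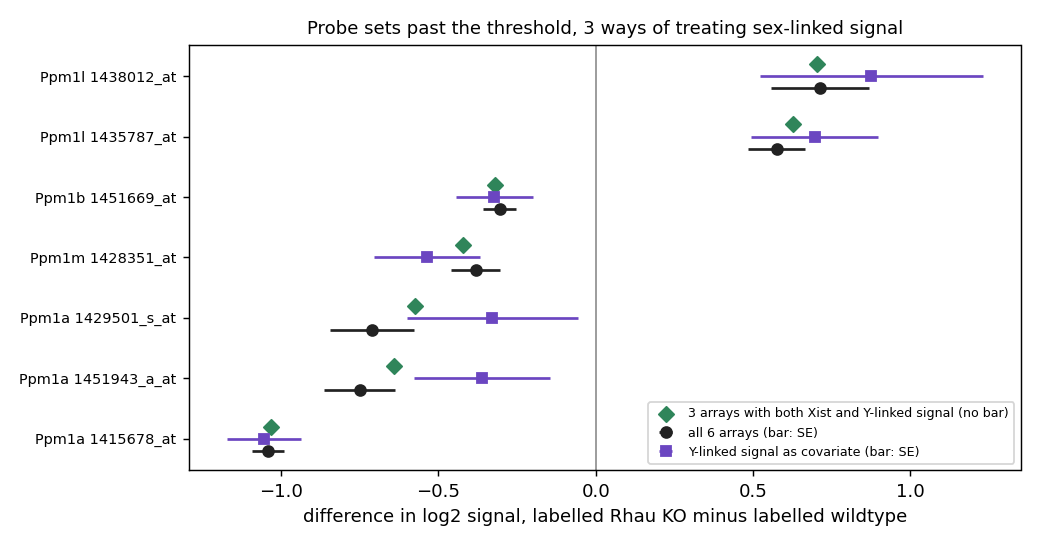
Difference in log2 signal (horizontal axis) of the 7 called PP2C probe sets in 3 computations: all 6 arrays, a covariate for Y-linked signal (bars are 1 standard error in both), and the 3 arrays holding both sex-linked signals (no bar). Ppm1a 1415678_at stays between -1.06 and -1.03, while the other Ppm1a probe sets move to -0.36 and -0.33 with the covariate.

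Marker genes of other cell types differed between the labelled groups as well. Over all 12416 tested genes, each by its brightest probe set, 9.75% were called lower and 6.77% higher. Of 9 measured erythroid markers 6 fell and 0 rose, with a median of -0.99. Their summed linear signal was 93309 to 99588 under the wildtype label and 71239 to 89204 under the Rhau KO label. Globin genes were the brightest of these markers and weigh most in that sum. Neither Hba-x nor Hbb-y was called, each at -0.10 with overlapping groups. A call of lower was made for Hbb-bh1, at -0.59, but not for Gata1, at -0.56. Of 10 endothelial markers 5 rose and 0 fell (sums of 11753 to 12761 and 13652 to 14931), of 10 macrophage markers 2 rose and 0 fell (3065 to 3358 and 4166 to 5038), and of 6 neural or neural crest markers 3 rose and 0 fell (3126 to 3236 and 4775 to 4979). Lyz2, at mean log2 signals of 7.32 and 10.30, made up most of the increase in the macrophage sum. Ednrb, at 11.04 and 11.82, made up most of that in the neural sum. Other markers of these lists were not called, among them Csf1r and Cx3cr1 at 0.04 and -0.10, and Sox10 and Tubb3 at 0.04 and -0.38. The calls of Mrc1, Elavl4, Gap43, Tie1, Sox18, Myl7, Pdgfrb and Dcn were each kept on leaving out 1 of the 6 arrays and lost on leaving out any other. Fibroblast markers had 1 higher and 1 lower of 9, cardiomyocyte markers 0 higher and 3 lower of 10, while 0 of 7 epicardial and 0 of 3 epithelial markers were called by limma, 3 and 2 of them having an unadjusted p under 0.05. No measured marker was at 0 on all arrays. In whole hearts, fewer cells of a type and less RNA per cell cannot be told apart, and the part of these markers in the PP2C differences was not tested.

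The genes whose pattern over the 6 arrays was most like that of Ppm1a 1415678_at were Rnf121, Mta3 and Stard10, with Pearson r of 0.9998, 0.9996 and 0.9988 among 12406 genes. Rnf121 encodes a ubiquitin ligase, Mta3 a subunit of the NuRD chromatin complex and Stard10 a lipid transfer protein. Their differences were -1.11, -1.30 and -1.24. The 6 points of each r share the same arrays and fall into 2 tight groups, one for each label.

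Relatives and known targets of the family were described through 13 lists of 176 genes, each gene by its brightest probe set. Of 158 genes above the filter, 25 were called lower and 8 higher, 15.8% and 5.06%, while over all 12416 genes so represented 9.75% were called lower and 6.77% higher. The median difference was -0.06 over these 158 genes and 0.01 over all genes. The lists were chosen with earlier results of these data known, so nothing is read from their share of calls or their median. With the Y-linked covariate, Hexim1 was the only gene named from these lists that kept its call. Within the 3 arrays holding both sex-linked signals, the called genes named from these lists kept their sign. Among them, Hexim1 stood there at -1.34, Prkag3 at 1.07, Rab35 at -0.64, Tab2 at -0.55, Pdk3 at 0.57 and Hipk2 at -0.51. Without the eBayes trend of the limma fit, Ppp1cc, Hibadh, Prkag3, Prkag2, Tab2, Tab3, Smad6, Rab35, Hexim1 and Pdk3 kept theirs, and the other called genes named from these lists lost it.

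The PP2C relatives outside the 10 members went lower where they were called. Ppm1j, a relative of Ppm1h and Ppm1m, fell by 0.49 (SE 0.127, adjusted p = 0.0290), and Pptc7, a mitochondrial family member, fell by 0.21 (SE 0.056, adjusted p = 0.0333). Ppm1j read 9.22, 8.97 and 9.11 (labelled wildtype) against 8.62, 8.38 and 8.85 (labelled Rhau KO), without overlap. Its call held only without replicate 2 labelled wildtype or replicate 3 labelled Rhau KO, and that of Pptc7 was lost whichever array was left out, at -0.23 to -0.18. The remaining 6 of 8 tested relatives were not called. The pyruvate dehydrogenase phosphatases Pdp1 and Pdp2 stood at -0.10 and -0.07, Ilkap at 0.14, the Akt phosphatases Phlpp1 and Phlpp2 at 0.04 and -0.05, and the inactive family member Tab1 at -0.06. A second Pdp1 probe set differed by 0.33 without a call. Among 11 catalytic subunits of the separate PPP family 2 fell and 0 rose: Ppp1cc, a PP1 subunit, by 0.37 (adjusted p = 6.85e-04) and Ppp2cb, a PP2A subunit, by 0.21 (adjusted p = 0.0343). The Ppp2cb call was lost without replicate 1 or 2 of either label, at -0.22 to -0.18, and its difference was -0.12 with the covariate.

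The kinases and signal carriers around Ppm1a and Ppm1b held called genes of both directions. In the stress MAP kinase cascade 3 of 17 fell and 1 rose. Tab2 and Tab3, which bind the ubiquitin chains that activate TAK1, fell by 0.58 (adjusted p = 3.34e-05) and 0.51 (adjusted p = 0.00136), and Map3k4 rose by 0.28 (adjusted p = 0.0445). Tab3 lies on the X chromosome. Map3k4 kept its call only without replicate 3 labelled wildtype (0.21 to 0.31 without the others), stood at 0.11 with the covariate, and another of its probe sets differed by -0.23. Of 12 SMAD proteins and regulators 3 fell and 0 rose. Smad4, the partner shared by TGF-beta and BMP signalling, fell by 0.44 (adjusted p = 0.00330), the ubiquitin ligase gene Smurf2 by 0.34 (adjusted p = 0.00692) and the inhibitory Smad6 by 0.34 (adjusted p = 0.00190). With the covariate Smad4 stood at -0.15 and Smurf2 at -0.23.

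AMPK genes went both ways, with 2 higher and 2 lower of 13. Prkag3, the gamma subunit best known from skeletal muscle, rose by 0.98 (SE 0.146, adjusted p = 0.00191), and Prkag2, the gamma subunit mutated in a heritable heart disease, fell by 0.40 (adjusted p = 0.00323). Other Prkag2 probe sets above the filter differed by -0.20 and -0.22, without a call. Strada, a partner of the upstream kinase LKB1, rose by 0.57 (adjusted p = 0.0432), lost its call whichever array was left out (0.40 to 0.66) and stood at 0.13 with the covariate. Of 8 IKK and NF-kappaB genes 0 were called in the limma fit, and 3 had an unadjusted p under 0.05. The brightest, Nfkbia and Rela, differed by 0.02 and -0.14.

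Mitochondrial partners of the family were called in both directions. The enzymes of branched-chain amino acid breakdown, the pathway of Ppm1k, had 3 lower and 2 higher of 21, against 9.75% and 6.77% over all genes. Hibadh, of valine breakdown, fell by 0.41 (adjusted p = 8.01e-04), while Bckdha, the catalytic subunit that Ppm1k dephosphorylates, rose by 0.35 (adjusted p = 0.0389) and Auh, of leucine breakdown, rose by 0.35 (adjusted p = 0.0114). Bckdha kept its call only without replicate 3 labelled Rhau KO (0.28 to 0.39 without the others). Other Auh probe sets above the filter differed by -0.50, -0.24 and -0.01. In the pyruvate dehydrogenase complex with its kinases, which Pdp1 and Pdp2 oppose, 4 of 8 fell and 1 rose, with a median of -0.25. Pdk3, an inhibitory kinase, rose by 0.50 (adjusted p = 0.00153), and the enzyme subunits Pdhb and Pdha1 fell by 0.40 (adjusted p = 0.0117) and 0.34 (adjusted p = 0.00389). Pdk3 and Pdha1 lie on the X chromosome, and with the covariate Pdhb stood at -0.04 and Pdha1 at -0.20.

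Partners of the other members were called in small numbers. Of 11 p53 and DNA damage genes, the side of Ppm1d, 2 fell and 0 rose: the cell cycle inhibitor Cdkn1a by 0.47 (adjusted p = 0.0211) and the kinase Hipk2 by 0.34 (adjusted p = 0.0254). Both calls were lost without replicate 2 or 3 labelled wildtype, that of Cdkn1a also without replicate 3 and that of Hipk2 without replicate 1 labelled Rhau KO, at -0.43 to -0.36 and -0.36 to -0.29. Hipk2 stood at -0.54 with the covariate. Another Cdkn1a probe set differed by 0.03. Further Hipk2 probe sets above the filter differed by -0.71 to 0.03, without a call. Of 12 CaM kinase and PAK genes, targets of Ppm1e and Ppm1f, Camk2d, the main CaM kinase of heart, rose by 0.31 (adjusted p = 0.0415) and 0 fell. It kept its call only without replicate 3 labelled Rhau KO (0.21 to 0.34 without the others), and 2 of its other probe sets were called higher as well, at 0.53 and 0.45. The rest of its probe sets above the filter differed by 0.04, 0.09 and 0.34, without a call. Of 17 LRRK kinases and Rab proteins, the side of Ppm1h, Rab35 fell by 0.67 (adjusted p = 2.14e-04), Rab12 fell by 0.27 (adjusted p = 0.0272) and Rab8b rose by 0.25 (adjusted p = 0.0134). The Rab8b call was lost without replicate 2 labelled wildtype, at 0.24, and with median centring, at 0.18. Rab12 kept its call only without replicate 1 labelled Rhau KO (-0.28 to -0.23 without the others) and stood at -0.16 with the covariate. A second Rab12 probe set differed by 0.04 without a call.

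Of 8 ceramide transfer and endoplasmic reticulum stress genes, around Ppm1l, Xbp1 fell by 0.16 (adjusted p = 0.0424) and 0 rose. The Xbp1 call was lost whichever array was left out, at -0.17 to -0.15, and its other probe sets differed by -0.07 to 0.08. Of 12 genes of the SMN complex and 7SK-bound P-TEFb, on which Ppm1g is known to act, Hexim1 fell and 0 rose. Hexim1, an inhibitor of transcription elongation, fell by 1.26 (SE 0.075, adjusted p = 8.78e-06), a 2.40-fold lower signal, and by 0.65 on its other probe set. Hexim1 stood at -1.47 with the covariate and -1.20 to -1.33 with any array left out.

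**Figure D4:**
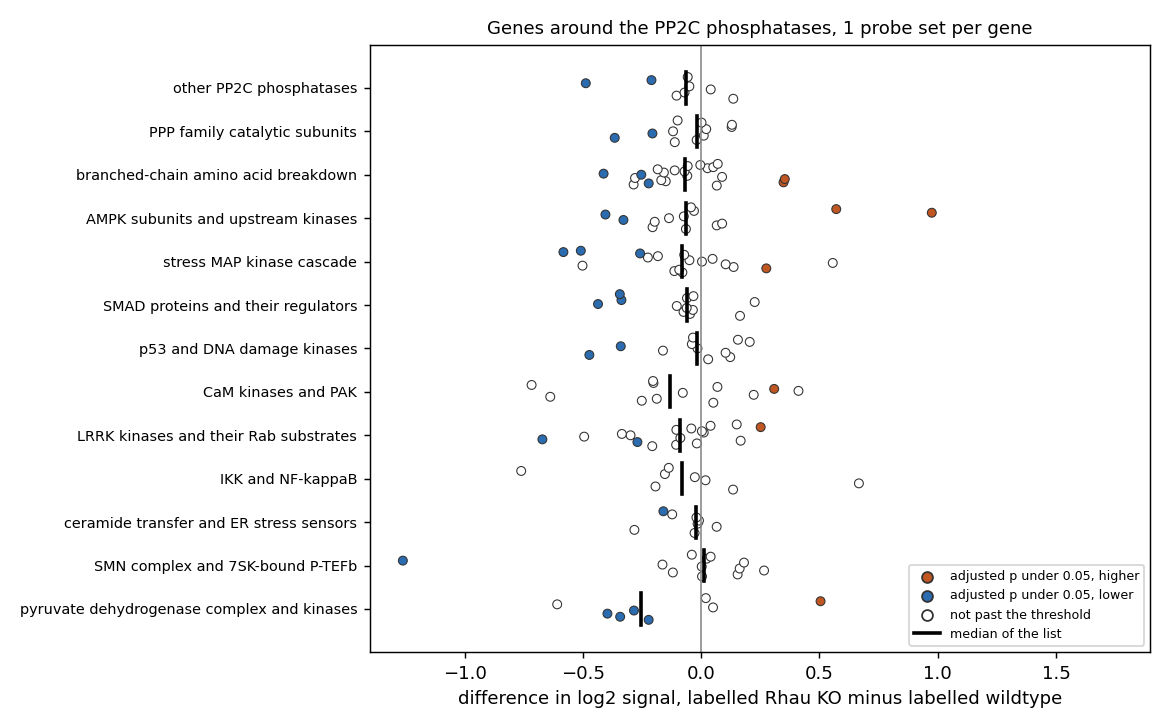
Difference in log2 signal (horizontal axis, labelled Rhau KO minus labelled wildtype) of the genes above the filter in 13 lists around the PP2C family, 1 probe set per gene. Filled points passed the adjusted p threshold and black bars are list medians, which lie between -0.25 for the pyruvate dehydrogenase list and 0.01 for the SMN and P-TEFb list.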

How the data were processed

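The 6 samples were mouse heart RNA, each on 1 Affymetrix mouse expression array. The values the authors deposited are log2 signals made with MAS5, per the submitters' processing notes; its version is not named there. The linear mean, trimmed by 2% at each end, was 500 on every array. Of 45101 probe sets, 64 controls were left out; 34945 named 1 gene, 932 several and 9160 none in the platform annotation. The lowest 40% by mean signal (log2 below 5.90) were left out, and limma 3.58.1 with eBayes trend compared the labels over 27022 probe sets with Benjamini-Hochberg adjustment at 0.05. The statistical scripts were tested on simulated data. The alternatives were other filters, pseudocounts of 1 and 64, quantile normalization, median centring, eBayes without trend, array weights, the replicate block, 1 probe set per gene, a covariate for Y-linked signal, the 3 arrays with both sex-linked signals, and each array left out. The Y-linked covariate was the mean of Eif2s3y, Kdm5d and Uty, each as a share of its highest array.

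All members were described by every probe set that named only them. From each related list up to 3 called genes of largest difference were named, otherwise the 2 of highest signal, and all other PP2C relatives; the 3 genes most like Ppm1a were those of highest Pearson r. Members and lists were chosen with earlier results of these data known. Figures and tables used Python 3.11.15, pandas 2.3.3 and matplotlib 3.10.9.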

Additional observations from a re-analysis of the deposited data

How the results depend on the processing

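Of the members' differences, 348 computed values kept their side of the threshold, 13 lost the call, 4 gained it and 0 reversed; for the related genes 493 kept it, 136 lost it and 0 reversed. Values without a call that stayed without one count as kept, also where their sign turned. Only a called probe set could lose a call, and 14 of the 21 tested member probe sets had none. The members called were 2 higher and 5 lower. They were 1 and 2 with 1 probe set per gene, 0 and 1 with the Y-linked covariate, and 1 and 1 in the 3 arrays with both sex-linked signals, where the lone wildtype array was assumed to vary like the others. The fit with 1 probe set per gene left out the other called member probe sets, and no member probe set that stayed in it lost its call. The median standard error was 0.271 with the covariate and 0.125 without it. Over all probe sets 1824 were higher and 1858 lower. These became 1007 higher with median centring, 886 higher and 903 lower without the eBayes trend, 28 and 110 with the covariate, 501 and 515 in the 3 arrays, and 1018 higher with 1 probe set per gene, where the fit and its adjustment ran on the 12416 gene representatives alone. Without the trend the calls of Ppm1m and of many named related genes were lost, among them Auh, Smad4, Smurf2, Pdhb and Pdha1, with the differences unchanged. Leaving out each array in turn gave 1 to 3 members higher and 5 to 6 lower. Of all probe sets it gave 1046 to 1283 higher and 1139 to 1574 lower. The lowest counts over all probe sets came without replicate 1 labelled wildtype. The replicate block gave 2 and 5 members and 1684 and 1760 of all probe sets, and ended the calls of Pptc7, Ppp2cb, Bckdha, Map3k4 and Xbp1. Median centring ended the calls of Bckdha, Strada, Map3k4, Camk2d and Rab8b, all called higher. Quantile normalization ended those of Bckdha, Strada and Xbp1. Same-numbered arrays deviated together with r of 0, 0.042 and 0.005, so the numbers were not taken to pair the samples. Apart from the probe sets left out, the cause of these shifts was not tested. With 3 arrays per label, small differences and dim probe sets are measured poorly.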
